A study of Mus musculus with 7 samples.

Results

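The genes described here are the 47 members of a list of antioxidant, thioredoxin, glutathione and metal-handling genes, found by symbol among the 13280 genes of the deposited count table. All 47 were found, and 45 had at least 5 reads in at least 2 libraries, so that they could be tested. The list was drawn up with results of these libraries known, and Cygb and Txnrd3 were put on it as genes that already stood out, so differences between the groups, and any call of a member, are given as descriptions and support nothing.

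The RNA-seq libraries compared Gli1+ MuSCs (tdT+, 4 libraries) with Gli1- MuSCs (tdT-, 3 libraries), muscle stem cells sorted from hindlimb muscle of uninjured adult mice, and the question was how the stem cells that express the Hedgehog-responsive gene Gli1 differ from those that do not. Every mouse carried Gli1-CreERT2; R26-tdT, with CreERT2 placed in the Gli1 locus and used in heterozygous form, and the labels give C57BL/6 as strain background where the study's methods describe a mix of C57BL6 and 129 for all mice. All mice, those of the Gli1- group included, had received tamoxifen (TAM), and cells were taken 3 days later by a CD45- CD31- Sca1- VCAM1+ gate. The tdT label marks cells in which the Gli1 locus drove CreERT2 during that time, and tdT- cells may include cells in which recombination failed; each library was made from 1 ng of total RNA, and whether it came from 1 mouse or a pool was not stated. P-values and standard errors therefore measure the spread between these libraries.

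Superoxide dismutases turn superoxide into hydrogen peroxide, which catalase, glutathione peroxidases and peroxiredoxins then remove. Glutathione peroxidases draw their electrons from glutathione, most peroxiredoxins from thioredoxin, and the reductases for both pools spend NADPH. The transcription factor Nrf2 (Nfe2l2), held in check by Keap1, drives many of these genes, while metallothioneins bind zinc and copper and ferritin stores iron, so that little free metal is left to react with peroxide. Muscle stem cells are small, mostly quiescent cells, and their redox state is known to bear on how they survive and enter the cell cycle.

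Several members are selenoproteins, in which a TGA codon is read as selenocysteine, often at the catalytic site. The sites of the glutathione peroxidases and thioredoxin reductases are printed because they show how close relatives on the list differ. They were read 5′ to 3′ from the GRCm38 reference transcripts, and capitals mark the selenocysteine codon or the cysteine codon at the same place:
Gpx1, codon 47: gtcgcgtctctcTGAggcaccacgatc
Gpx3, codon 73: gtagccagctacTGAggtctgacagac
Gpx4, codon 73: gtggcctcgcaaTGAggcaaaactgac
Gpx7, codon 56: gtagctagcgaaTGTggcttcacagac
Gpx8, codon 79: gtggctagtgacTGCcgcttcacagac
Txnrd1, codon 498: cagtctggctgcTGAggttaa
Txnrd2, codon 526: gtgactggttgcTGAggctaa
Txnrd3, codon 614: cagaaaggctgcTGAggctag
Gpx7 and Gpx8 carried cysteine where Gpx1, Gpx3 and Gpx4 carried selenocysteine, and in all 3 reductases the selenocysteine codon stood just before a glycine codon and the stop. In all, 9 tested members held such a codon, and Selenop, the plasma selenium carrier, held 10 of them. The median log2 fold change, Gli1+ over Gli1-, was 0.29 for these 9 members and 0.13 for the other 36. Among the 9, Txnrd3 (11.3) was put on the list because it stood out and had no read in Gli1- libraries. Txnrd2 (2.35) was read in only 1 Gli1- library. The median of the 9 depends on both genes, so the medians support no difference between the sets.

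Library totals were 10595181 to 13781283 reads in Gli1+ libraries and 12808512 to 19662721 reads in Gli1- libraries. Values below are CPM, read counts set to a common library size, with TMM factors that align the bulk of genes between libraries, and a value after ± is the SD over 4 Gli1+ or 3 Gli1- libraries. Gli1- libraries 2 and 3 stood apart: 5471 and 6834 genes had a read in them, against 10829 in Gli1- library 1 and 8579 to 10016 in the Gli1+ libraries. Gli1 itself had 50.3, 30.7, 7.28 and 18.3 CPM in the Gli1+ libraries and 11.6, 0 and 0 CPM in the Gli1- libraries, so it was below the detection limit in Gli1- libraries 2 and 3 and overlapped in library 1 with the Gli1+ group. Hhip, a Hedgehog target, had 54.4, 98.6, 84.3 and 61.1 CPM in the Gli1+ libraries and no read in the Gli1- libraries, and Pax7, which defines muscle stem cells, averaged 407 ± 120.2 and 347 ± 173 CPM (SD, n = 4 Gli1+ and n = 3 Gli1-). Summed over 11 genes, markers of fibro/adipogenic progenitors (FAPs) and fibroblasts reached 1702, 2563, 5512 and 8350.2 CPM in Gli1+ libraries 1 to 4 and 1661, 3315 and 2428 CPM in the Gli1- libraries, with none of the 11 at 0 throughout. Gli1+ libraries 3 and 4 also had the largest sums of macrophage and immune (397 and 336 CPM), tenocyte (1167 and 935 CPM) and Schwann and glial markers (322 and 256 CPM), against at most 171, 699 and 183 CPM in the Gli1- libraries. Other lists went differently. Endothelial markers summed to 1215 and 386 CPM in Gli1+ libraries 3 and 4 and to 1008 CPM in Gli1- library 2. For pericyte and smooth muscle markers the same libraries had 3313, 1813 and 2055 CPM. Neutrophil markers summed to 130 and 62.7 CPM in Gli1- libraries 2 and 3 and to at most 0.185 CPM in Gli1+ libraries. The Sca1- gate is meant to remove FAPs, and the FAP marker Pdgfra had 0, 9.10, 42.9 and 0 CPM in the Gli1+ libraries and 0, 22.3 and 0 CPM in the Gli1- libraries, while Ly6a, which encodes Sca1, had 17.1, 13.3, 165 and 51.7 CPM in the Gli1+ libraries and 14.6, 299 and 80.2 CPM in the Gli1- libraries. Because these are bulk libraries, fewer cells of a type and less RNA per cell cannot be told apart, and because reads carry no molecular identifiers, limits drawn from read numbers cover counting error only.

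No member passed the test between the groups in the fit across all genes. In the edgeR quasi-likelihood fit, after Benjamini-Hochberg adjustment over all tested genes, 0 of 45 members were called at an adjusted p under 0.05, against 0 of 11134 genes (0% of all genes tested), and the lowest adjusted p of any gene was 0.278. Limma-voom also called 0 genes. At an unadjusted p under 0.05, 2 members were higher in Gli1+ MuSCs (Txnrd3 and Cygb) and 0 were lower, beside 1.53% of all genes higher and 0.611% lower. DESeq2, the tool of the study, called 2 members higher, the same pair, beside 0.628% of 10191 genes. Both are the genes put on the list for this pattern and both passed the filter through Gli1+ libraries alone, so neither count says anything of the list. Of the other 43 members, 0 had an unadjusted p under 0.05 in this edgeR fit and 0 were called by DESeq2. Of the 45 members, 27 had a log2 fold change above 0, beside 65.3% of all genes, and their median was 0.13, beside 0.30 for all genes. When libraries were scaled by their totals alone, 22 of 45 were above 0. For 33 members the group means lay within 2-fold of each other.

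Members that were read in every library had a median log2 fold change close to 0. For these 31 the median was 0.02, beside 0.05 for the 3743 genes read in all 7 libraries, and their log2 fold changes ran from -1.34 (SE 2.21) for Glrx5 to 1.05 (SE 0.53) for Prdx1. The other 14 tested members had no read in at least 1 library, and their fitted values depend on where those gaps fell. Taking the groups' ranges, 3 members had all Gli1+ values above all Gli1- values (Txnrd3, Gss and Cygb), beside 2.87% of all genes, and 2 lay lower (Txnrd1 and Glrx5), beside 0.934%. Leaving aside Txnrd3 and Cygb, 1 of 43 lay higher and 2 lower. Which members separate depends on Gli1- library 1: without it 10 did so (Txnrd1, Txnrd3, Prdx4, Prdx5, Prdx6, Gss, Glrx3, Glrx5, Cygb and Ftl1), 7 of them higher and 3 lower, beside 1557 and 312 of 10556 genes. Without Gli1- libraries 2 and 3, an alternative chosen after seeing the data, the number was 12, with 6 higher and 6 lower, beside 955 and 2019 of 10951 genes.

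**Figure D1:**
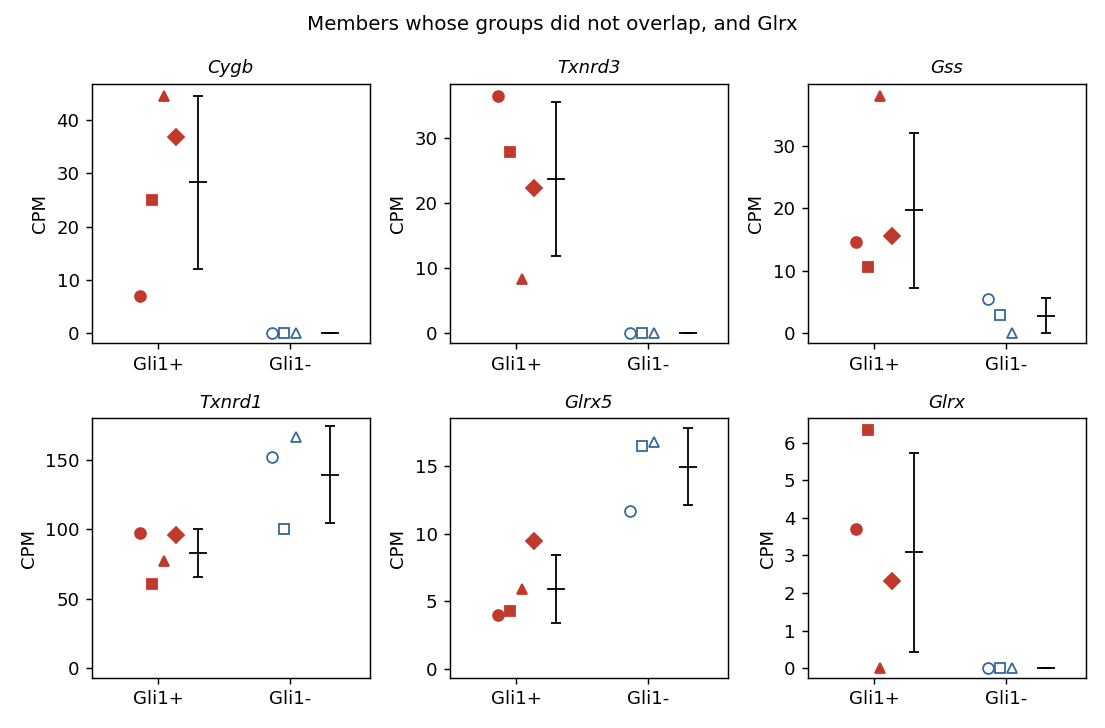
CPM of the 5 members whose groups did not overlap, and of Glrx, in each Gli1+ library (filled symbols, left) and each Gli1- library (open symbols, right); symbol shapes stand for replicate numbers, and the bar gives the mean ± SD (n = 4 and n = 3). Cygb, Txnrd3 and Glrx had no read in any Gli1- library, while Txnrd1 and Glrx5 lay higher in all 3 Gli1- libraries.

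The members covered a wide range of levels, led by a peroxidase, metal-handling genes and Txnip. Per kilobase of the principal transcript, averaged over the 7 libraries, Gpx3 came first at 3098 CPM per kb, followed by Mt2 at 2849.9, Mt1 at 2070.1, Fth1 at 975, Ftl1 at 595, Txnip at 433, Sod1 at 361, Selenop at 261 and Gstm1 at 253. The order of the leading pair varied: the per-kb ratio of Gpx3 to Mt2 ran between 0.984 and 1.44 in Gli1+ libraries and between 0.641 and 1.87 in Gli1- libraries. Of the 47 members, 20 averaged at least 100 CPM, and the 47 genes together made up 1.10% to 1.62% of each library's reads.

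**Figure D2:**
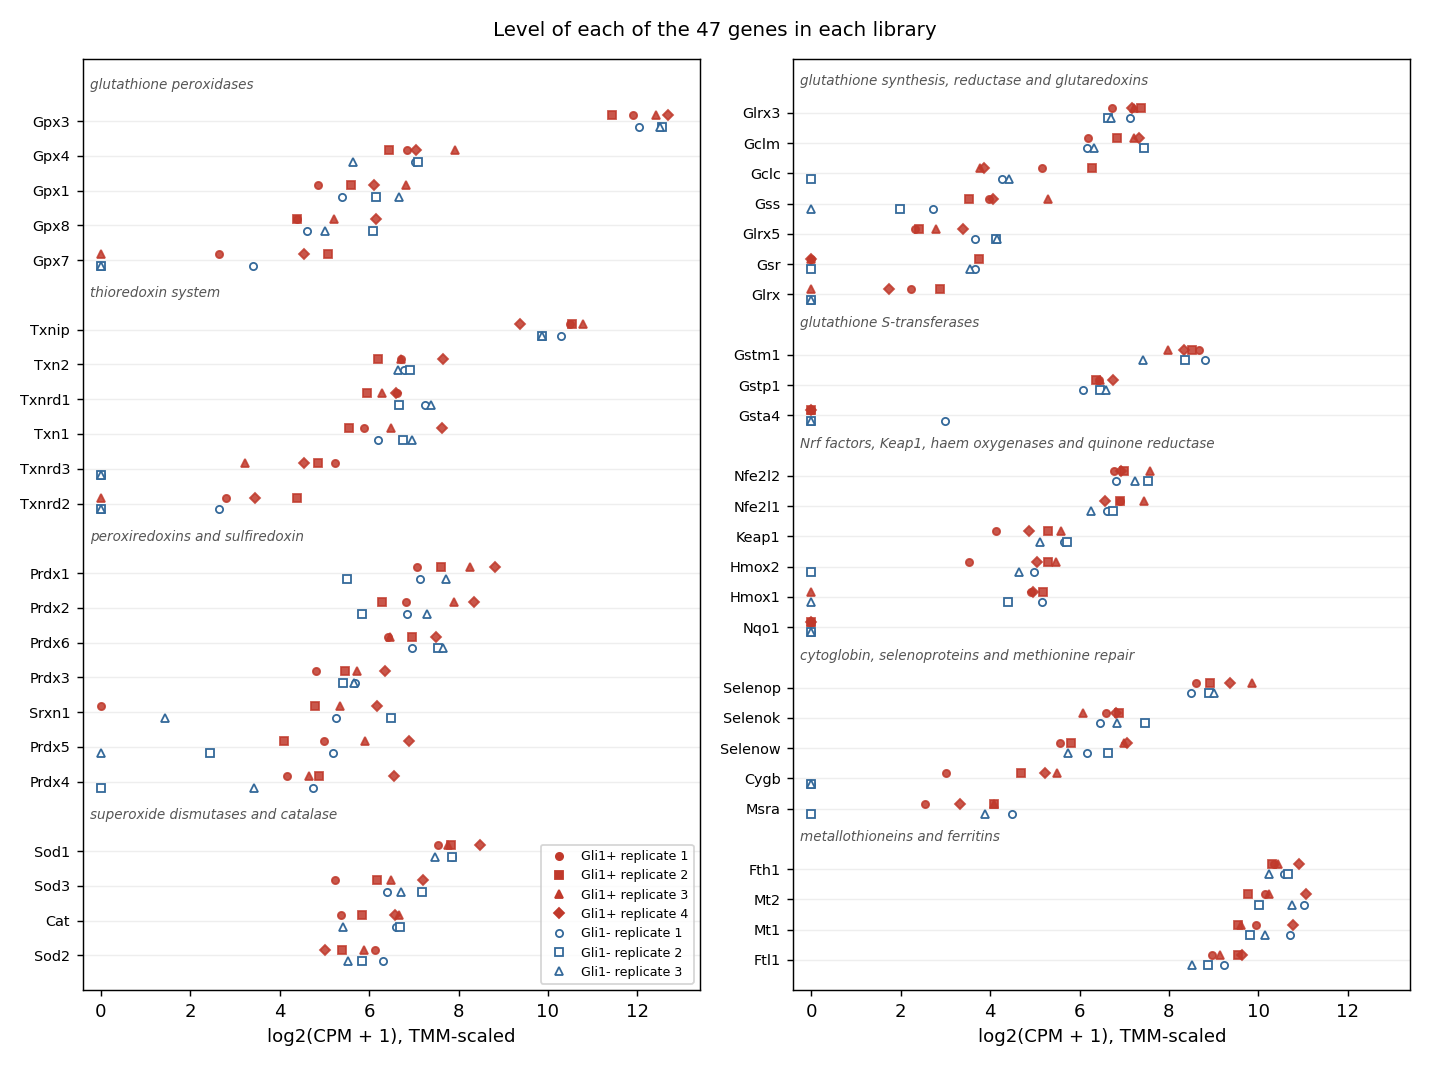
Level of each of the 47 genes, as log2(CPM + 1), in the 4 Gli1+ libraries (filled, upper of each pair of lines) and the 3 Gli1- libraries (open, lower), grouped by role. Gpx3, Txnip, Fth1, Mt2, Mt1 and Ftl1 are far to the right in all 7 libraries, and Txnrd3, Cygb and Glrx have their Gli1- points at 0.

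Among the glutathione peroxidases, the secreted Gpx3 far exceeded its relatives and had overlapping values in both groups. Gpx3 read 3832, 2755, 5436 and 6586 CPM in Gli1+ libraries 1 to 4, against 4170.1, 5984 and 5804 CPM in Gli1- libraries 1 to 3. Gli1+ library 4 was highest, Gli1+ library 2 lowest and all 3 Gli1- libraries lay between them. Its means were 4652 ± 1696 CPM in Gli1+ MuSCs and 5319 ± 999.3 CPM in Gli1- MuSCs (SD, n = 4 and n = 3), a log2 fold change of -0.19 (SE 0.38).

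Gpx4, which reduces lipid hydroperoxides in membranes and restrains ferroptosis, had 115, 86.3, 241 and 131 CPM in Gli1+ libraries 1 to 4, against 129, 135 and 48.8 CPM in Gli1- libraries 1 to 3. Its highest value came from Gli1+ library 3 and its lowest from Gli1- library 3, and the groups overlapped (log2 fold change 0.46, SE 0.47). Of the stretches of 31 bases in Gpx4 transcripts, 38.9% also occur in other genes, mainly the processed pseudogene Gpx4-ps2, so part of its count is uncertain. Gpx1, the cytosolic enzyme, abundant in red cells, averaged 63.8 ± 36.0 CPM in Gli1+ MuSCs and 70.9 ± 29.7 CPM in Gli1- MuSCs, and was highest in Gli1+ library 3 (112 CPM) and Gli1- library 3 (101 CPM). Erythroid markers, summed over the listed genes present in the table, were also highest there, at 2299 CPM in Gli1+ library 3 and 961 CPM in Gli1- library 3, beside 3.64 to 86.2 CPM in the other Gli1+ libraries and 21.9 to 124 CPM in the other Gli1- libraries, and their part in the Gpx1 value was not tested. Gpx8, an enzyme of the endoplasmic reticulum, averaged 36.5 ± 23.7 CPM in Gli1+ MuSCs and 40.4 ± 23.1 CPM in Gli1- MuSCs. Gpx7, its relative in the same compartment, had the widest fold change of the family, 2.23 (SE 3.19), from 5.28, 32.6, 0 and 22.4 CPM in the Gli1+ libraries and 9.63, 0 and 0 CPM in the Gli1- libraries. That value rests on libraries without a read, since 3 Gli1+ libraries and only Gli1- library 1 held Gpx7 reads.

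In the thioredoxin system the 3 reductases each had their own pattern over the libraries. Txnrd3, the reductase with an added glutaredoxin domain known from testis (chr6:89643988-89675529, + strand, GRCm38), was read in all 4 Gli1+ libraries and in none of the 3 Gli1- libraries. Its reads numbered 394, 382, 92 and 221 in Gli1+ libraries 1 to 4, or 36.5, 27.8, 8.37 and 22.3 CPM, and 0 in each Gli1- library. The Gli1+ mean of Txnrd3 was 127-fold above a limit of 3 reads per Gli1- library. That limit covers counting error only and does not allow for genes missed in a whole library. No 31-base stretch of its transcripts occurs in another gene. The gene was chosen for that pattern, so this is a description. Of all genes tested, 3.83% were without reads in the Gli1- group, and 27 genes had reads in all 4 Gli1+ libraries and none in Gli1-. Among 3217 genes averaging 20 to 50 CPM in Gli1+ MuSCs, 16 had no read in any Gli1- library (0.497%), while 1.59%, 52.1% and 32.1% had none in Gli1- libraries 1, 2 and 3 taken singly.

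Txnrd1, the cytosolic reductase and a known Nrf2 target (chr10:82833951-82897712, + strand, GRCm38), lay the other way. It had 97.1, 61.0, 77.0 and 96.1 CPM in Gli1+ libraries 1 to 4, against 152, 100.2 and 166 CPM in Gli1- libraries 1 to 3. Every Gli1- library was above every Gli1+ library, though the nearest pair lay close, Gli1+ library 1 at 97.1 CPM and Gli1- library 2 at 100.2 CPM. Means were 82.8 ± 17.2 CPM in Gli1+ MuSCs and 139 ± 34.7 CPM in Gli1- MuSCs (SD, n = 4 and n = 3), a log2 fold change of -0.75 (SE 0.37). Within the Gli1+ libraries Txnrd1 exceeded Txnrd3 per kb by 2.14, 1.76, 7.39 and 3.47 times in libraries 1 to 4. Txnrd2, the mitochondrial reductase, was low and patchy, with means of 8.95 ± 8.32 CPM in Gli1+ MuSCs and 1.75 ± 3.03 CPM in Gli1- MuSCs.

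The thioredoxins themselves had close group means. Txn1, the cytosolic form, averaged 97.4 ± 68.7 CPM in Gli1+ MuSCs and 101 ± 26.2 CPM in Gli1- MuSCs. Txn2, the mitochondrial form, had 104, 72.9, 104 and 199 CPM in Gli1+ libraries 1 to 4, against 109, 119 and 99.1 CPM in Gli1- libraries 1 to 3. Gli1+ libraries held both its highest and its lowest value, and its log2 fold change of 0.13 (SE 0.40) turned negative when libraries were scaled by totals. Txnip, which binds thioredoxin and limits glucose uptake, had 1444, 1489, 1749 and 668 CPM in Gli1+ libraries 1 to 4, against 1256, 933 and 938 CPM in Gli1- libraries 1 to 3. Gli1+ libraries 1 to 3 exceeded every Gli1- library and Gli1+ library 4 was the lowest of the 7 (log2 fold change 0.36, SE 0.37). An antisense gene, Gm15441, covers 19.4% of the Txnip exon bases.

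The peroxiredoxins had the highest median of the role groups, 0.79, with 5 of 7 members above 0 and none separated. Prdx1, an abundant cytosolic peroxidase, read 133, 194, 304 and 451 CPM in Gli1+ libraries 1 to 4, against 139, 44.3 and 209.9 CPM in Gli1- libraries 1 to 3. Gli1- library 2 was the lowest and Gli1+ library 4 the highest, while Gli1+ library 1 lay below Gli1- libraries 1 and 3. Its means were 270.4 ± 139.7 CPM in Gli1+ MuSCs and 131 ± 83.1 CPM in Gli1- MuSCs (SD, n = 4 and n = 3), with a log2 fold change of 1.05 (SE 0.53). Prdx2, the other typical cytosolic form, followed the same library order at the top, with 113, 77.0, 237 and 327 CPM in Gli1+ libraries 1 to 4, against 115, 56.5 and 156 CPM in Gli1- libraries 1 to 3. Its log2 fold change was 0.79 (SE 0.52), and again Gli1+ libraries 3 and 4 lay above all the rest. These are also the libraries with the largest sums of FAP, macrophage and immune, tenocyte, and Schwann and glial markers, and the part of such RNA in the peroxiredoxin values was not tested.

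Prdx5, which works in mitochondria, peroxisomes and cytosol, had the largest fold change of the group, 2.06 (SE 1.78). It was read at 30.7, 16.2, 59.2 and 119 CPM in Gli1+ libraries 1 to 4, against 35.9, 4.47 and 0 CPM in Gli1- libraries 1 to 3. Only Gli1- library 1 overlapped with the Gli1+ range, and without it the log2 fold change was 4.60. Of its exon bases, 19.1% are shared with Trmt112 on the other strand. Prdx4, the peroxiredoxin of the endoplasmic reticulum, averaged 40.9 ± 35.7 CPM in Gli1+ MuSCs and 11.9 ± 13.1 CPM in Gli1- MuSCs. Prdx3, the mitochondrial one, averaged 50.9 ± 22.7 CPM in Gli1+ MuSCs and 47.1 ± 4.83 CPM in Gli1- MuSCs. Prdx6, which uses glutathione, averaged 119 ± 44.6 CPM in Gli1+ MuSCs and 169 ± 40.7 CPM in Gli1- MuSCs, with no overlap once Gli1- library 1 was left out. Sulfiredoxin (Srxn1), which restores overoxidised peroxiredoxins, ranged from 0 to 71.0 CPM in Gli1+ MuSCs and from 1.72 to 88.8 CPM in Gli1- MuSCs.

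**Figure D3:**
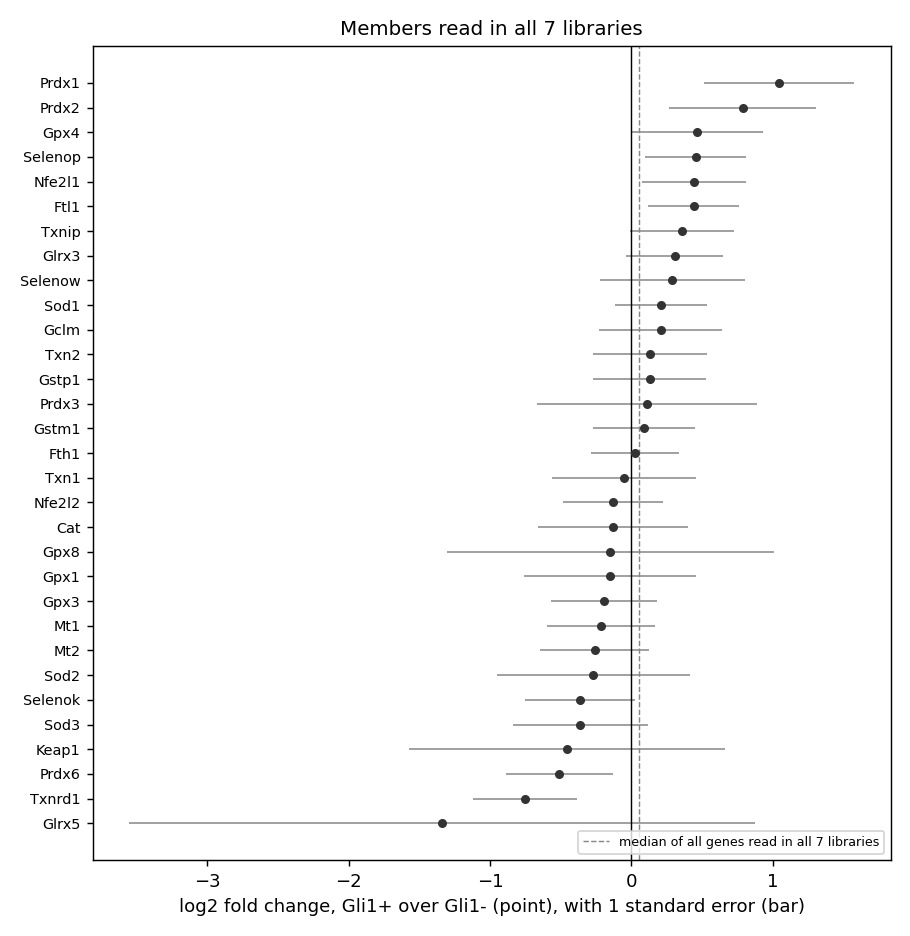
Log2 fold change, Gli1+ over Gli1-, of the 31 members read in all 7 libraries (points) with 1 standard error on each side (bars); the dashed line is the median of the 3743 genes read in all 7 libraries, 0.05. Prdx1 lies at the top with 1.05 and Glrx5 at the bottom with -1.34, and 16 of the 31 lie above 0.

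Superoxide dismutases and catalase had overlapping values in both groups. Sod1, the copper- and zinc-dependent cytosolic enzyme, had 184, 226, 217 and 357 CPM in Gli1+ libraries 1 to 4, against 230.0, 230.0 and 178 CPM in Gli1- libraries 1 to 3. Its spread between libraries was small apart from a high Gli1+ library 4, and its log2 fold change was 0.21 (SE 0.32). Sod3, the secreted form, had 36.5, 71.1, 89.1 and 146 CPM in Gli1+ libraries 1 to 4, against 83.0, 143 and 105 CPM in Gli1- libraries 1 to 3. The Gli1- range lay within the Gli1+ range, with a log2 fold change of -0.36 (SE 0.48). Sod2, the manganese enzyme of mitochondria, averaged 49.7 ± 16.7 CPM in Gli1+ MuSCs and 59.96 ± 16.7 CPM in Gli1- MuSCs. Catalase (Cat) averaged 73.2 ± 29.6 CPM in Gli1+ MuSCs and 80.2 ± 33.3 CPM in Gli1- MuSCs.

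Genes of glutathione synthesis and of the glutaredoxins included a pair that separated in opposite directions. Gss, glutathione synthetase, which adds glycine in the last step (chr2:155563181-155592810, - strand, GRCm38), was read at 14.6, 10.6, 38.02 and 15.6 CPM in Gli1+ libraries 1 to 4, against 5.57, 2.95 and 0 CPM in Gli1- libraries 1 to 3. All 4 Gli1+ libraries lay above all 3 Gli1- libraries, at means of 19.7 ± 12.4 CPM and 2.84 ± 2.79 CPM (SD, n = 4 and n = 3), and the log2 fold change was 2.79 (SE 2.58), or 3.69 without Gli1- library 1. Its exons share bases with Acss2 and with the antisense genes Gssos1 and Gssos2 on the other strand. Glrx5, a mitochondrial glutaredoxin that hands on iron-sulfur clusters (chr12:105032688-105042906, + strand, GRCm38), had 3.98, 4.30, 5.91 and 9.47 CPM in Gli1+ libraries 1 to 4, against 11.7, 16.5 and 16.8 CPM in Gli1- libraries 1 to 3. Every Gli1- library was higher, at means of 5.91 ± 2.52 CPM in Gli1+ MuSCs and 14.98 ± 2.86 CPM in Gli1- MuSCs (SD, n = 4 and n = 3), yet the SE of its log2 fold change was large, -1.34 (SE 2.21). None of its 31-base stretches is shared.

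Glrx, the cytosolic glutaredoxin, had 40, 87, 0 and 23 reads in Gli1+ libraries 1 to 4 and 0 in each Gli1- library. That is 3.70, 6.33, 0 and 2.32 CPM, with 1 Gli1+ library at 0 as well. The Gli1+ mean was 16.6-fold above the limit of 3 reads per Gli1- library, which covers counting error only. The other 4 genes of this role overlapped. Glrx3, an iron-sulfur carrier of the cytosol, was the most abundant of the role by CPM, with 105, 166, 147 and 143 CPM in Gli1+ libraries 1 to 4, against 138, 99.1 and 103 CPM in Gli1- libraries 1 to 3. Its log2 fold change was 0.31 (SE 0.34), and the value of Gli1- library 1 lay among those of Gli1+ MuSCs. The modifier subunit of glutamate-cysteine ligase, Gclm, had 72.1, 114, 148 and 160.4 CPM in Gli1+ libraries 1 to 4, against 70.5, 172 and 78.9 CPM in Gli1- libraries 1 to 3. Both groups spanned about the same range (log2 fold change 0.21, SE 0.44), and the catalytic subunit, Gclc, averaged 34.5 ± 30.2 CPM in Gli1+ MuSCs and 13.0 ± 11.3 CPM in Gli1- MuSCs. Glutathione reductase (Gsr) was read only in Gli1+ library 2 and in Gli1- libraries 1 and 3, with means of 3.11 ± 6.23 CPM in Gli1+ MuSCs and 7.48 ± 6.49 CPM in Gli1- MuSCs.

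Glutathione S-transferases attach glutathione to electrophiles. Gstm1 was the most abundant of the 3 on the list and had 404, 362, 250.1 and 322 CPM in Gli1+ libraries 1 to 4, against 446, 329 and 171 CPM in Gli1- libraries 1 to 3. The highest and the lowest value both came from Gli1- libraries, and the log2 fold change was 0.09 (SE 0.36). Gstp1 had 85.6, 81.5, 86.9 and 107 CPM in Gli1+ libraries 1 to 4, against 66.1, 86.9 and 94.9 CPM in Gli1- libraries 1 to 3. It was among the most even members (log2 fold change 0.13, SE 0.40), and both transferases changed sign when libraries were scaled by totals. Of the Gstp1 stretches 38.5% occur in other genes, mainly Gstp2, and of the Gstm1 stretches 28.8%. Gsta4, which handles lipid aldehydes, had 0 reads in the Gli1+ libraries and 129 reads (6.98 CPM) in Gli1- library 1 alone, so it did not enter the test.

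The regulators of this response were present in all libraries, and its classic target Nqo1 was not detected. Nfe2l2 (Nrf2) had 108, 127, 189 and 121 CPM in Gli1+ libraries 1 to 4, against 111, 185 and 150.1 CPM in Gli1- libraries 1 to 3. The ranges overlapped almost wholly, with a log2 fold change of -0.13 (SE 0.35). Nfe2l1, its relative that controls proteasome genes, had 118, 119, 173 and 94.0 CPM in Gli1+ libraries 1 to 4, against 97.1, 106 and 75.3 CPM in Gli1- libraries 1 to 3. Gli1+ library 3 was highest and Gli1- library 3 lowest (log2 fold change 0.44, SE 0.37). Keap1, the adaptor that sends Nrf2 for degradation, averaged 32.6 ± 13.1 CPM in Gli1+ MuSCs and 44.7 ± 9.75 CPM in Gli1- MuSCs. Nqo1, a quinone reductase, had 0 reads in all 7 libraries, which allows up to 3 reads, or 0.162 to 0.302 CPM depending on the library.

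The haem oxygenases, which break haem down to biliverdin, iron and carbon monoxide, were modest. Hmox1, the inducible form, averaged 23.7 ± 15.99 CPM in Gli1+ MuSCs and 18.4 ± 17.5 CPM in Gli1- MuSCs. Hmox2, the constitutive form, had the largest fold change of the role at 0.77 (SE 2.01), from 10.5, 38.2, 43.7 and 32.2 CPM in the Gli1+ libraries and 30.6, 0 and 24.0 CPM in the Gli1- libraries. Its lowest libraries were Gli1- library 2, without a read, and Gli1+ library 1, and without that Gli1- library the log2 fold change was 0.19. Of the Hmox2 exon bases, 40.2% overlap Cdip1 on the other strand, and whether reads were counted by strand is unknown here.

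Cygb, cytoglobin, a globin that binds oxygen and nitric oxide and is known from fibroblasts and stellate cells (chr11:116645595-116654313, - strand, GRCm38), was, like Txnrd3 and Glrx, read only in Gli1+ MuSCs. Its reads numbered 76, 343, 488 and 364 in Gli1+ libraries 1 to 4, or 7.04, 25.0, 44.4 and 36.7 CPM, and 0 in each Gli1- library. Library 1 was the lowest of the 4 and library 3 the highest. Its Gli1+ mean was 28.3 ± 16.2 CPM (SD, n = 4), 152-fold above the limit of 3 reads per Gli1- library, which covers counting error only. The libraries with the most Cygb, Gli1+ 3 and 4, also had the largest sums of FAP markers and of the immune, tenocyte and glial markers given above, while Gli1+ library 2 had 25.0 CPM of Cygb at a FAP sum of 2563 CPM, against no Cygb read in Gli1- libraries 2 and 3 at FAP sums of 3315 and 2428 CPM. Those 2 Gli1- libraries had no read for 52.1% and 32.1% of genes averaging 20 to 50 CPM in Gli1+ MuSCs, so absence there says little. In Gli1- library 1, where 1.59% of such genes had no read, Cygb had no read at a FAP sum of 1661 CPM. Gli1+ library 1 had 7.04 CPM of Cygb at a FAP sum of 1702 CPM. The part of RNA from such cells in the Cygb value was not tested. Prcd, on the other strand, shares 8.62% of the Cygb exon bases.

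Selenop, the secreted selenium carrier, was the most abundant of this role. It had 389, 485, 928 and 661 CPM in Gli1+ libraries 1 to 4, against 362, 476 and 512 CPM in Gli1- libraries 1 to 3. Gli1+ libraries 3 and 4 lay above all Gli1- libraries and Gli1+ libraries 1 and 2 among them (log2 fold change 0.45, SE 0.36). These are again the libraries with the largest sums of FAP, macrophage and immune, tenocyte, and Schwann and glial markers, whose part in the Selenop value was not tested. Selenok, a selenoprotein of the endoplasmic reticulum, had 95.8, 118, 66.0 and 112 CPM in Gli1+ libraries 1 to 4, against 86.9, 176 and 114 CPM in Gli1- libraries 1 to 3. Its highest value was in Gli1- library 2 and its lowest in Gli1+ library 3, a log2 fold change of -0.36 (SE 0.39). Selenow, a small selenoprotein abundant in muscle, averaged 90.2 ± 45.5 CPM in Gli1+ MuSCs and 73.9 ± 23.0 CPM in Gli1- MuSCs. Msra, which repairs oxidised methionine, averaged 11.5 ± 5.58 CPM in Gli1+ MuSCs and 11.7 ± 10.9 CPM in Gli1- MuSCs.

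The metal-handling genes were high in both groups, with means close to each other. Mt2 had 1141, 870.2, 1214 and 2147 CPM in Gli1+ libraries 1 to 4, against 2084, 1028 and 1709 CPM in Gli1- libraries 1 to 3. Mt1 had 989, 744, 779 and 1738 CPM in Gli1+ libraries 1 to 4, against 1671, 894 and 1140.0 CPM in Gli1- libraries 1 to 3. For both metallothioneins the highest libraries were Gli1+ library 4 and Gli1- library 1, at close values, and the lowest was Gli1+ library 2, so that libraries of 1 group differed more than the groups did. The ratio of Mt2 to Mt1 in CPM stayed between 1.15 and 1.56 in Gli1+ libraries and between 1.15 and 1.4995 in Gli1- libraries. Log2 fold changes were -0.26 (SE 0.39) for Mt2 and -0.22 (SE 0.38) for Mt1. An antisense gene, Gm45774, covers 73.5% of the Mt2 exon bases, so without strand the Mt2 count may include its reads.

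The metallothionein promoters are shown because the pair lies side by side on chromosome 8 and varied together between libraries. They are the 250 bases before each start in RefSeq on GRCm38.p6, both on the + strand, Mt2 at chr8:94172368-94172617 and Mt1 at chr8:94178839-94179088. Capitals mark matches to the core of the metal response element, TGCACNC or TGCGCNC, on either strand:
Mt2: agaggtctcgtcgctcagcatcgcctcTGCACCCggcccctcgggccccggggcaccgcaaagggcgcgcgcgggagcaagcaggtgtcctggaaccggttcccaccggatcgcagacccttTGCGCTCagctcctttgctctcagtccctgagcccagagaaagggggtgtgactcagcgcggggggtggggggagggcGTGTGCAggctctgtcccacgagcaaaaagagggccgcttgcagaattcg
Mt1: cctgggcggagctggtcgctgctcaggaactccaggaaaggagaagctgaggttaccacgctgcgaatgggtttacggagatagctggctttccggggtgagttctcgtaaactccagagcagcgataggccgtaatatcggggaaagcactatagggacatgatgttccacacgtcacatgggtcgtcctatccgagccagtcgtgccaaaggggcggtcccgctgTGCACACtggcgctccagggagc
Within these 250 bases Mt2 held 3 such matches and Mt1 held 1. Bases after each start and further upstream were not searched, so these are not counts for the whole promoters. Among the 39 members found in the promoter table, 11 held at least 1 match (28.2%), beside 23.8% of 27025 genes. The core of the antioxidant response element, TGACNNNGC, was in 7 of the 39 (Gclm, Mt2, Nfe2l2, Prdx1, Selenok, Sod1 and Txnrd1; 17.9%), beside 11.5% of genes. In Mt2 it read TGACTCAGC, which also contains the AP-1 motif TGACTCA. These are matches of letters and not measured sites.

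Ferritin, the iron store, is built of a heavy and a light chain. Fth1, the heavy chain, had 1296, 1269, 1385 and 1923 CPM in Gli1+ libraries 1 to 4, against 1517, 1615 and 1197 CPM in Gli1- libraries 1 to 3. It was the most even of the abundant members, with a log2 fold change of 0.02 (SE 0.31) whose sign turned under DESeq2's size factors and under scaling by totals. Ftl1, the light chain, had 494, 742, 562 and 797 CPM in Gli1+ libraries 1 to 4, against 599, 470.0 and 367 CPM in Gli1- libraries 1 to 3. Gli1+ libraries 2 and 4 lay above every Gli1- library and libraries 1 and 3 among them (log2 fold change 0.44, SE 0.32). In CPM, Fth1 exceeded Ftl1 by 1.71 to 2.62 times in Gli1+ libraries and by 2.53 to 3.44 times in Gli1- libraries. Of the Ftl1 stretches 64.1% occur in other genes, mainly the pseudogene Ftl1-ps1, so its count is uncertain.

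Members without a read were spread unevenly over the libraries. Of 45 members, 2, 0, 5 and 1 had no read in Gli1+ libraries 1 to 4, against 3, 10 and 8 in Gli1- libraries 1 to 3. The shares of all tested genes without a read were 13.0%, 15.1%, 24.9% and 16.6% in the Gli1+ libraries and 7.14%, 51.5% and 39.5% in the Gli1- libraries. Gaps in Gli1- libraries 2 and 3 thus ran through the whole table, and members with gaps there include Gpx7, Txnrd2, Hmox2, Gclc and Prdx5. Gli1+ library 4 was the highest of the 7 for 17 of 45 members (37.8%), beside 17.2% of all tested genes, and for 8 of 45 members when libraries were scaled by totals, beside 10.01% of genes.

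**Figure D4:**
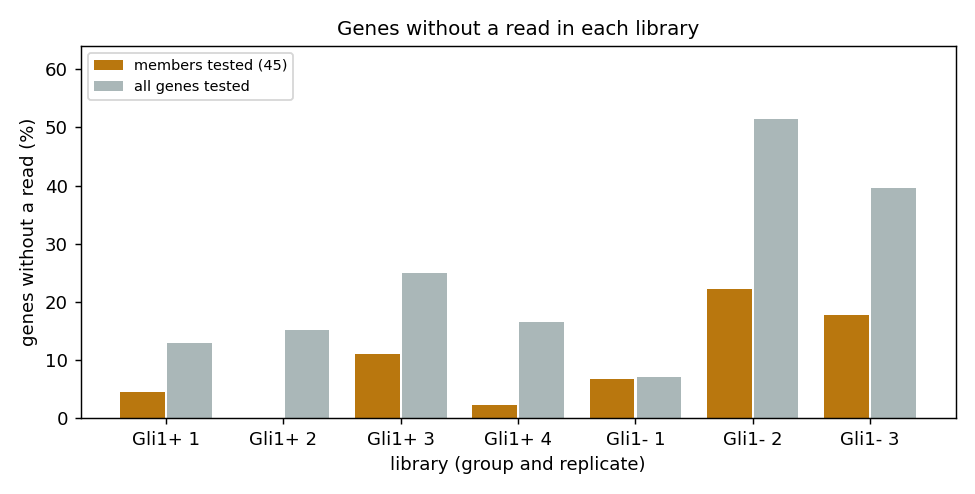
Percent of genes without a read in each of the 4 Gli1+ libraries (left) and 3 Gli1- libraries (right), for the 45 members tested (brown bars) and for all genes tested (grey bars). Gli1- libraries 2 and 3 have the largest shares, 51.5% and 39.5% of all genes.

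Other genes of the same pathways also gave no call. Of 135 genes in 8 lists (other selenoproteins, selenocysteine insertion, glutathione transferases and transport, thioredoxin-fold proteins, Nrf2 partners and targets, iron, zinc and copper handling, and oxidant producers), 112 were tested and 0 were called in either direction by edgeR. Of these, 71 were above 0 (63.4%, beside 65.3% of all genes), with a median of 0.24, beside 0.30. Without overlap, 9 of 112 were higher and 0 lower, beside 2.87% and 0.934% of all genes. Most of these 9 had no read in Gli1- library 2, in Gli1- library 3 or in both. In those libraries 51.5% and 39.5% of all tested genes had no read. The Gli1- libraries that did hold reads of these 9 also lay below every Gli1+ library, and the part of such gaps in the separation was not tested. By list, the medians ran from -0.12 for the other glutathione transferases and transporters to 0.87 for the other selenoproteins and methionine sulfoxide reductases, of which 10 of 12 were above 0. Most of those 10 also had no read in Gli1- library 2, in Gli1- library 3 or in both. Cp, ceruloplasmin, a copper enzyme that oxidises iron for export, had 468, 532, 286 and 321 CPM in Gli1+ libraries 1 to 4, against 206, 209 and 238 CPM in Gli1- libraries 1 to 3. All 4 Gli1+ libraries exceeded the 3 Gli1- libraries, with means of 401 ± 117 CPM and 218 ± 17.7 CPM (SD, n = 4 and n = 3) and a log2 fold change of 0.88 (SE 0.32).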

How the data were processed

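RNA was measured in 7 libraries of sorted mouse MuSCs, 4 Gli1+ and 3 Gli1-. The deposited table holds whole-number counts of reads per gene; the authors state mapping to GRCm38 transcripts with STAR, loading with tximport, a filter on genes with few reads and DESeq2, whereas CASAVA and HISAT2 2.0.5 are the tools in the submitters' processing notes. No source used here gives the strand setting of the counting. The table also holds 14 normalized columns of single libraries and the authors' own fold changes and p-values, and neither was used. Of 13280 rows, 40 had no symbol.

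Groups came from the labels. Counts were scaled by TMM and tested with edgeR 4.0.16 in R 4.3.3 (robust quasi-likelihood, group as the only term) over the 11134 genes that reached 5 reads in 2 or more libraries (the study's filter), with Benjamini-Hochberg adjustment. The biological coefficient of variation was 1.76. A log2 fold change is Gli1+ over Gli1-. The fitted value of a gene without a read in a group depends on edgeR's prior count, so a limit of 3 reads per library was used for folds. Alternatives were DESeq2 1.42.0, limma 3.58.1 (voom with quality weights), DESeq2's size factors, library totals, other filters, no robust estimation, a replicate block and leaving out libraries. The scripts were tested on simulated data.

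The members, the pathway lists and the tests were chosen with earlier results of these data known. Every member is named. Values per library are given for members whose groups did not overlap, for those without a read in a group, and, in each role, for the most abundant pair and the largest fold change. A pathway gene is named only if its groups did not overlap and its unadjusted p was under 0.05. Gene positions, overlaps and shared stretches of 31 bases came from GENCODE M21 on GRCm38, and promoters from RefSeq on GRCm38.p6, in which 39 of 47 members were found. Transcript lengths for levels per kb are those of the principal transcript. Library depth, 10595181 to 19662721 reads, puts the limit of 3 reads at 0.162 to 0.302 CPM.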

Additional observations from a re-analysis of the deposited data

Results flagged for a closer look

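In 3 members, 1 of the 4 Gli1+ libraries lay far from the other 3. Prdx4 had 93.9 CPM in Gli1+ library 4, beside 16.9, 28.5 and 24.3 CPM in libraries 1 to 3. Gsr had 12.5 CPM in Gli1+ library 2 and no read in the other 3 Gli1+ libraries. Hmox1 had 0 CPM in Gli1+ library 3, beside 29.3, 35.2 and 30.2 CPM in libraries 1, 2 and 4. The Gli1+ values of 45 members were looked at, and chance alone flags about 1 in 20 such groups if values are normally distributed. That rate does not hold for groups with libraries at 0. With no read in the other 3 Gli1+ libraries, Gsr was bound to be flagged. Groups of 3 libraries were not looked at, so Gli1- MuSCs have no such flag.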

How the results depend on the processing

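No gene was called by edgeR with all libraries, against 66 genes by DESeq2, and leaving out 1 library at a time gave 0 to 2 genes (2 without Gli1- replicate 1 and 1 without Gli1- replicate 2). Among members, DESeq2 called 2 and edgeR 0 under each of its settings. In edgeR, Txnrd1 reached an unadjusted p under 0.05 with DESeq2's size factors, with library totals, and without Gli1- replicate 2 or Gli1+ replicate 4. Prdx1 did so without Gli1- replicate 3 or Gli1+ replicate 1, and Glrx without Gli1+ replicate 3 and in DESeq2. With the replicate block, Txnip and Mt2 did so in edgeR, and Txnrd3 and Cygb did not. The number of members above 0, 27 of 45, was 15 of 31 when at least 5 reads were required in all 7 libraries, and 24 to 32 with 1 library left out. Members without overlap numbered 5, against 2 under that filter, 5 to 10 with 1 library left out (10 without Gli1- replicate 1) and 12 without Gli1- replicates 2 and 3. The median log2 fold change of members, 0.13, ran between -0.04 and 0.25 over all settings. Over 16 settings, 684 of 706 member fold changes moved by less than the spread between replicates and 22 by more. Sign was kept with each library left out in turn for 29 members and not for 16. Same-numbered libraries were not tied by the labels to 1 mouse or day, and their deviations correlated at 0.24, -0.11 and 0.07, so the numbers were not taken to pair them; with the replicate block 0 genes were called, 23 members were above 0 and the median was 0.05. Low read numbers limit Gpx7, Txnrd2, Gsr, Glrx, Msra, and also Glrx5 and Gss, whose groups did not overlap.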
